A study of Mus musculus with 32 samples.

Results

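Transcripts for receptors, and for the proteins that bind or serve them, were followed in the prefrontal cortex of mice from lines bred for severe or mild ethanol withdrawal. A spot was taken when its title held the word receptor and did not begin with EST. Titles that also named a kinase, glutamate, gamma-aminobutyric acid or a synapse were left out. The rule found 47 of the 5163 cDNA spots, standing for 46 different genes because the receptor activity-modifying protein Ramp2 has 2 spots. By what the titles name, 36 are receptors or receptor subunits and 11 are receptor-associated proteins. They fall into 6 G protein-coupled receptors, 6 cytokine and tumour necrosis factor receptors, 10 growth factor, adhesion and guidance receptors, 5 immune recognition receptors, 3 ion channels, 4 nuclear receptors and 11 associated proteins, with the few others each in a class of their own. Several titles met the rule by the word alone: the phosphatases Ptpn1, Ptpn12 and Dusp1 are titled as non-receptor types.

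WSP mice (Withdrawal Seizure-Prone) and WSR mice (Withdrawal Seizure-Resistant) were derived from heterogeneous HS/Ibg stock, with 2 independently selected lines in each direction. Adult drug-naive females and males breathed ethanol vapor (EtOH) or air (Air) for 72 h and were sampled at 0 h of withdrawal. EtOH mice first received an ethanol injection of 1.5 g/kg, or a higher dose in WSP-2, and every mouse, Air controls included, was given pyrazole at 68.1 mg/kg, an inhibitor of alcohol dehydrogenase. Each array carried 33P-labelled cDNA from 2 pooled animals, so a value belongs to a pool and not to a mouse. Sex, line and treatment gave 8 groups of 4 arrays, and 1 array (female WSR-2 EtOH, pool 1) was not used, which left 31. Below, the array 2-1 of a group is selection replicate 2, pool 1, and the values of a group come in the order 1-1, 1-2, 2-1, 2-2. With 2 selected lines in each direction, a line difference rests on few independent selections.

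Receptors couple an outside signal to a change inside the cell. G protein-coupled receptors act through G proteins, cytokine receptors such as the leptin receptor act through JAK and STAT proteins, and ligand-gated channels pass ions directly. Nuclear receptors such as estrogen receptor 1 bind DNA and regulate transcription when their ligand is present, and the inositol trisphosphate receptor releases calcium from the endoplasmic reticulum. In the cortex many of these transcripts are made at low levels or by a minority of cells, including glia, vascular cells and blood cells in the vessels.

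Each spot had an intensity (Signal), and each array a single Background reading. A spot counts as above background wherever its Signal is larger than the reading of the same array. The reading ran from 8.25 to 769 (median 21.9) and followed the groups. It was 430 to 769 on the 7 female WSR arrays, 8.25 to 41.1 on the 16 male arrays, 88.4 to 283 on the female WSP pool 1 arrays and 10.3 to 66.8 on the female WSP pool 2 arrays. From 15.8% to 82.5% of all cDNA spots were above background on an array. Spot profiles of arrays of the same group correlated at 0.562 to 0.817 in female WSR and at 0.890 to 0.943 in males. In female WSP they correlated at 0.766 to 0.951 (Air) and 0.734 to 0.949 (EtOH). Glutamine synthetase (astrocytes) was above background on 31 of 31 arrays, the myelin proteolipid protein on 22 and synapsin I (neurons) on 12. Transthyretin, a choroid plexus transcript, and a hemoglobin alpha spot were each above on 31. Another spot with the same hemoglobin alpha title was above on only 5, and the hemoglobin beta spots on 14 and 13. The only microglial match, a complement C1q-binding protein and not a defining marker, was above on 2, and no endothelial title was found. Bulk tissue was measured throughout, so fewer cells of a type and less RNA per cell cannot be told apart.

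Most receptor transcripts lay close to background. Between 5 and 34 of the 47 spots (10.6% to 72.3%, median 18 spots) were above background on an array, and only 0 to 4 exceeded 2 times the reading. Of all cDNA spots, 5.93% to 24.8% exceeded 2 times the reading on an array. The number moved with the Background reading: the median was 23 receptor spots on male arrays and 8 on female WSR arrays. Female WSP pool 1 arrays had 6 to 17 and female WSP pool 2 arrays 26 to 31. The median receptor spot was above background on 12 of 31 arrays, against 13 for all cDNA spots. Exactly 1 receptor (F2rl3) was above on all 31 arrays, against 460 of all 5163 cDNA spots. On at least 50% of arrays 10 of the 47 were above, against 2031 of all 5163 cDNA spots and 400 of the 1160 titled spots.

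**Figure D1:**
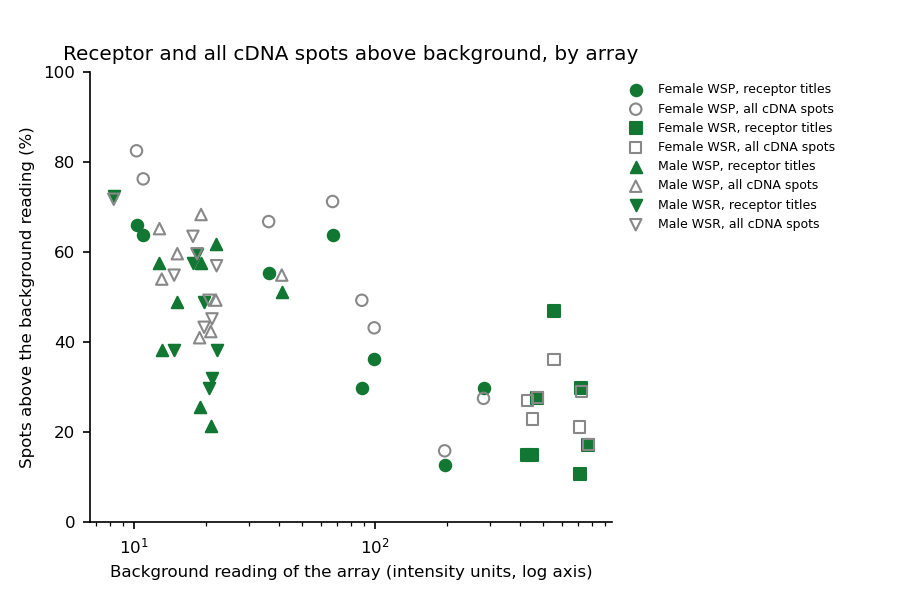
Share of spots above background (vertical axis, percent) against the Background reading of the array (horizontal axis, intensity units, log scale) for the 31 arrays; filled symbols are the 47 receptor spots, open grey symbols all cDNA spots, and shapes mark sex label and line. Receptor shares ran from 10.6% to 72.3%, and the female WSR arrays sit at the highest readings, 430 to 769.

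Among the G protein-coupled receptors, the thrombin receptor-like F2rl3 (PAR4) was above background on 31 arrays, the adhesion receptor Adgrg1 on 22 and the chemokine receptor Ccr7 on 21. The orphan receptor Gpr26 was above on 12 and the prostaglandin E receptor Ptger4 on 10. The immune recognition receptors were detected at a similar rate (median 18 arrays). The C-type lectin-like receptor Clec1b, known from platelets, was above on 24, the endotoxin receptor Tlr4 on 23 and the complement receptor Cr2 on 18. The Fc receptor gamma chain Fcer1g was above on 12 and Tlr1, which recognises bacterial lipopeptides together with Tlr2, on 9. Detection of these 2 classes was the highest among the classes with more than 1 member, with medians of 17 and 18 arrays.

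Cytokine and tumour necrosis factor receptors had a median of 8.5 arrays. The leptin receptor Lepr was above background on 13 arrays, the interferon gamma receptor chain Ifngr2 on 12 and the lymphocyte costimulatory receptor Cd27 on 10. The oncostatin M receptor Osmr was above on 7, and the interleukin receptors Il18rap and Il7r on 6 each. Of the growth factor, adhesion and guidance receptors (median 10), the receptor phosphatase Ptpra was above on 17, the fibroblast growth factor receptor Fgfr4 on 14, the integrin Itgb1 on 13 and the phosphatase Ptprk on 12. The ephrin receptor Epha8, Fgfr1 and Fgfr3 were above on 10 each, the phosphatase Ptpre on 9, the insulin-like growth factor receptor Igf1r on 5 and the epidermal growth factor receptor Egfr on 4. Egfr and Igf1r were therefore below background on nearly all arrays.

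The 3 ion channels were the muscle-type acetylcholine receptor subunit Chrna1 (15 arrays), the ATP-gated channel P2rx1 (13) and the calcium release channel Itpr1 (10). Nuclear receptors ran from 14 arrays for the orphan receptor Nr4a2 through the oxysterol receptor Nr1h2 (13) and estrogen receptor 1, Esr1 (11), to 9 for a spot titled nuclear receptor subfamily 2, group H, member 1. The peroxisomal import receptor Pex5 was above on 13 arrays. Among associated proteins, the cytokine receptor-related Crlf3 was above on 28, Ramp2 probe 1 on 17, the Golgi protein Acbd3 on 16, Ptpn12 on 14 and the endoplasmic reticulum protein Bcap31 on 11. Ptpn1, a phosphatase of the insulin and leptin receptor pathways, was above on 10, the transcription factor Arnt2 on 9, the MAP kinase phosphatase Dusp1 and the adaptor Grb2 on 6 each and Ramp2 probe 2 on 4. The 2 Ramp2 spots thus differed in detection although they carry the same gene name. On the 11 arrays with a reading above 80, Ptpra, Ptpn12, Fgfr3, Egfr and Ramp2 probe 2 were never above background.

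**Figure D2:**
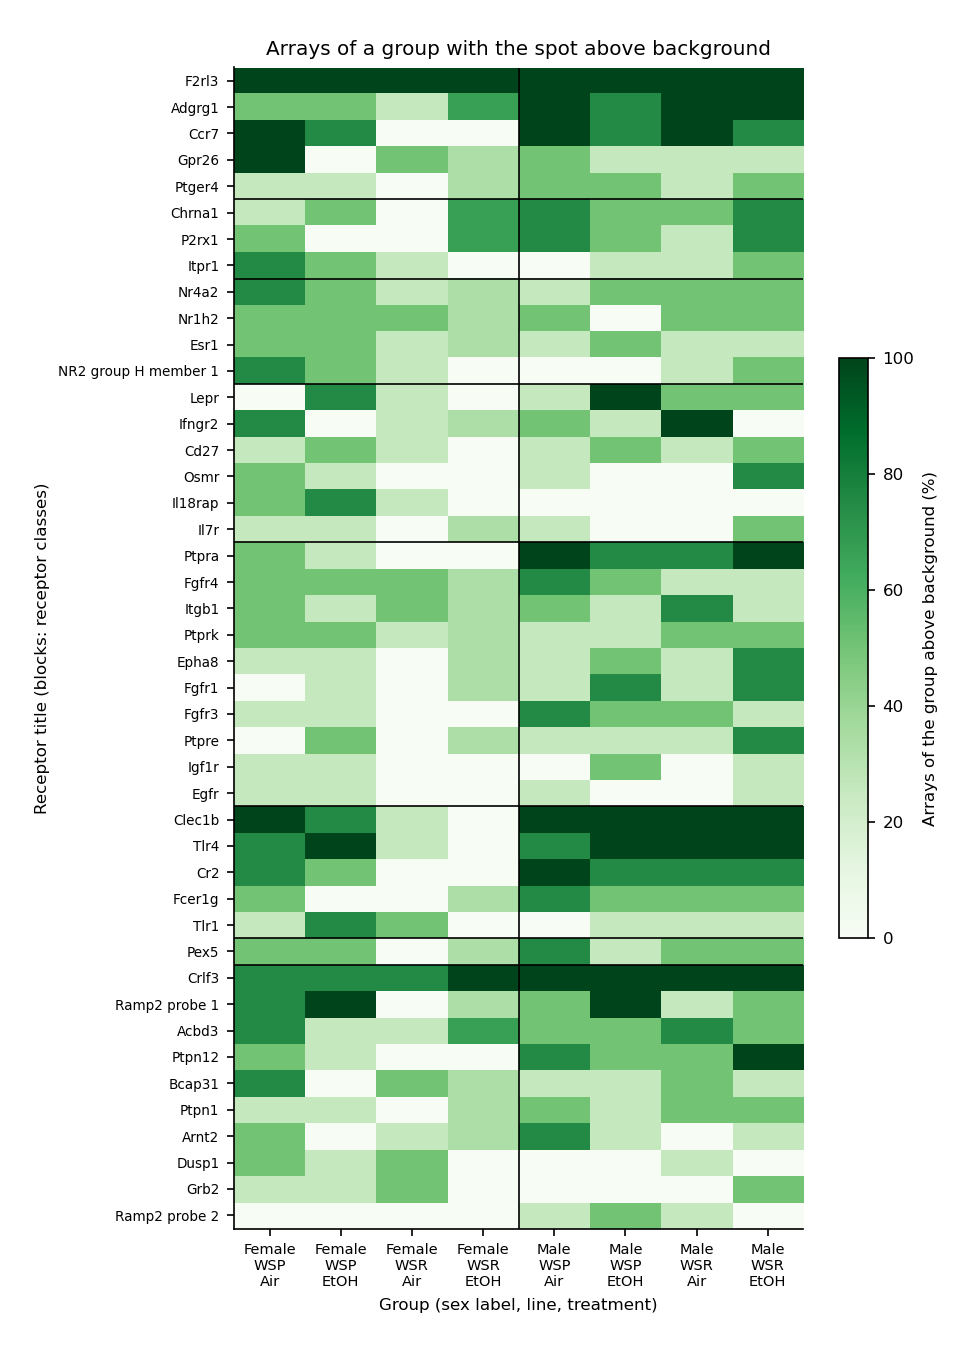
Share of a group's arrays above background (colour, 0 to 100%) for 44 of the 47 receptor spots (vertical axis, in blocks by class) in the 8 groups (horizontal axis). F2rl3 was above background on 31 of 31 arrays, while Clec1b and Crlf3 were above on all 16 male arrays and on 1 and 6 of the 7 female WSR arrays.

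Levels below are quantile-normalised log2 intensities, and a difference of 1 on that scale is a doubling. Receptors whose mean level was in the lowest 25% of all cDNA spots were not tested. That left 36 of the 47, and the 11 untested included Grb2, Dusp1, Il7r, Ramp2 probe 2, Fgfr3, Egfr, Tlr1, Il18rap and Igf1r. F2rl3 had the smallest typical SD within a group. Its level was 6.59 to 9.66 over the 31 arrays, and its Signal stood 1.63 to 42.2 times above the reading. In the 4 male groups its means were 9.09 to 9.15, in female WSP 9.03 and 9.14, and in female WSR 8.55 (Air, SD 1.36, n = 4) and 8.17 (EtOH, SD 0.62, n = 3). Across receptors the distance between the highest and the lowest of the 8 group means ran from 0.21 (Nr4a2) to 2.60 (Chrna1), with a median of 1.26. The typical SD within a group was 0.56 (median over receptors), from 0.23 (F2rl3) to 0.82 (Ptprk).

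The ethanol comparisons asked which transcripts differ at the end of 72 h of vapor. All tests used limma with Benjamini-Hochberg adjustment over 3872 spots and a threshold of 0.05. The spread of a spot was estimated over all 8 groups together. Each SE and p therefore also carries the spread of groups outside the comparison, and the groups differed in spread. None of the 36 tested receptors passed in any of the 4 sex and line groups. Of all spots, 0% passed in female WSP, 0.232% in female WSR, 0% in male WSP and 0% in male WSR. At an unadjusted p below 0.05 stood 4 receptors in female WSP, 5 in female WSR, 0 in male WSP and 1 in male WSR, which is 11.1%, 13.9%, 0% and 2.78% of the receptors against 3.67%, 14.7%, 0.904% and 0.723% of all spots. Averaged over the 4 sex and line groups, 0% of all spots and 0 receptors passed, with 5 receptors (13.9%) against 5.22% of all spots at an unadjusted p below 0.05. The median receptor difference was −0.20 in female WSP, −0.03 in female WSR, −0.10 in male WSP and −0.09 in male WSR. Over all spots these medians were −0.03, 0.05, 0.00 and −0.02.

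The leptin receptor gave the smallest unadjusted p among the receptors in WSP females. Lepr, which signals energy stores to the brain, read 3.30, 3.97, 4.23 and 3.59 in female WSP Air and 5.26, 5.07, 5.88 and 5.16 in female WSP EtOH. All 4 EtOH arrays were above all 4 Air arrays, and Lepr was above background on 3 EtOH arrays and 0 Air arrays. The difference was 1.57 ± 0.35 (SE), with an unadjusted p of 0.000111 and an adjusted p of 0.43 by limma, so it did not pass. As no Air array was above background, the fold is given as at least 1.89-fold higher in EtOH. That bound covers the Air side only, because EtOH values below background were kept as read. Among the arrays with a reading under 80, 2 pools of each treatment, the difference was 1.28 (limma adjusted p = 0.165).

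In male WSP mice Lepr read 4.12, 4.59, 4.24 and 4.45 in Air and 4.90, 5.31, 5.06 and 4.51 in EtOH, a difference of 0.59 ± 0.35. The groups overlapped through EtOH array 2-2, and Lepr was above background on 4 EtOH arrays and 1 Air array. In WSR the differences were smaller than their errors. Female WSR Air read 4.68, 4.98, 3.08 and 5.23 against 4.24, 4.32 and 4.61 in EtOH (−0.10 ± 0.38). Male WSR Air read 4.65, 4.94, 4.16 and 4.29 against 3.92, 4.86, 4.14 and 4.64 in EtOH (−0.12 ± 0.35). Averaged over the 4 sex and line groups the Lepr difference was 0.49 ± 0.18 (limma adjusted p = 0.858), and 12 of 15 EtOH arrays were above the Air mean.

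Ramp2, which carries calcitonin-receptor-like receptor to the cell surface and sets its ligand preference, gave the next smallest p in WSP females. Probe 1 read 4.12, 5.09, 4.77 and 3.92 in female WSP Air and 4.98, 5.31, 7.25 and 5.05 in female WSP EtOH, a difference of 1.17 ± 0.42 (unadjusted p = 0.00946, limma adjusted p = 1.00). The groups overlapped, and array 2-1 stood far above the others; without it the difference was 0.64. In male WSP probe 1 read 3.78, 4.48, 5.07 and 3.91 in Air and 4.69, 5.55, 4.79 and 5.06 in EtOH (0.71 ± 0.42), again overlapping. In WSR the Air arrays read 4.43, 4.36, 3.74 and 4.35 in females and 4.60, 3.96, 4.08 and 4.52 in males. The WSR EtOH arrays read 4.25, 3.85 and 4.94 in females and 3.93, 5.35, 4.18 and 4.80 in males, so each WSR treatment pair overlapped. Probe 2 was above background on no female array. Its means were 3.58 (Air) and 3.80 (EtOH) in female WSP and 3.84 and 4.54 in male WSP, and it was not tested.

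P2rx1, a channel opened by ATP, was among the receptors with the smallest p in WSR. There it read 4.91, 4.77, 4.66 and 4.28 in female Air and 4.80, 6.35 and 5.96 in female EtOH, a difference of 1.05 ± 0.41 (unadjusted p = 0.0155, limma adjusted p = 0.224). No female WSR Air array was above background and 2 of the 3 EtOH arrays were, so the fold is at least 1.37, with the EtOH value below background kept as read. In male WSR it read 4.61, 4.51, 3.81 and 3.50 in Air and 4.29, 4.84, 5.32 and 5.07 in EtOH (0.78 ± 0.38, unadjusted p = 0.0497, limma adjusted p = 1.00). In both sexes 1 EtOH array fell inside the Air range. In WSP it read 5.41, 3.88, 4.31 and 4.43 in female Air against 4.22, 3.93, 4.95 and 3.45 in EtOH, and 4.98, 4.42, 5.15 and 4.58 in male Air against 5.06, 4.59, 3.96 and 4.50 in EtOH. Those ranges overlapped in both sexes.

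Tests of the difference in ethanol response between the lines called 0% of all spots and 0 receptors, with 2 receptors (5.56%, against 5.19% of all spots) at an unadjusted p below 0.05. These were Lepr, with a WSP minus WSR response of 1.20 ± 0.36 (unadjusted p = 0.00232, limma adjusted p = 0.86), and P2rx1 with −1.23 ± 0.39 (unadjusted p = 0.00356, limma adjusted p = 0.86). Cr2 followed with −0.77 ± 0.40 (limma adjusted p = 0.954). The difference in response between the sexes also called 0% of all spots and 0 receptors. Itpr1 was the only receptor at an unadjusted p below 0.05 (2.78%, against 3.98% of all spots), with a female minus male response of −1.25 ± 0.57 (limma adjusted p = 0.977). Chrna1 gave 1.34 ± 0.72 and Lepr 0.50 ± 0.36 there. Without female WSR EtOH array 1-2 the Chrna1 value was 0.63, and without female WSR Air array 2-1 the Lepr value was 0.26. For Esr1 the 2 response differences were −0.10 ± 0.65 by line and 0.03 ± 0.65 by sex.

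**Figure D3:**
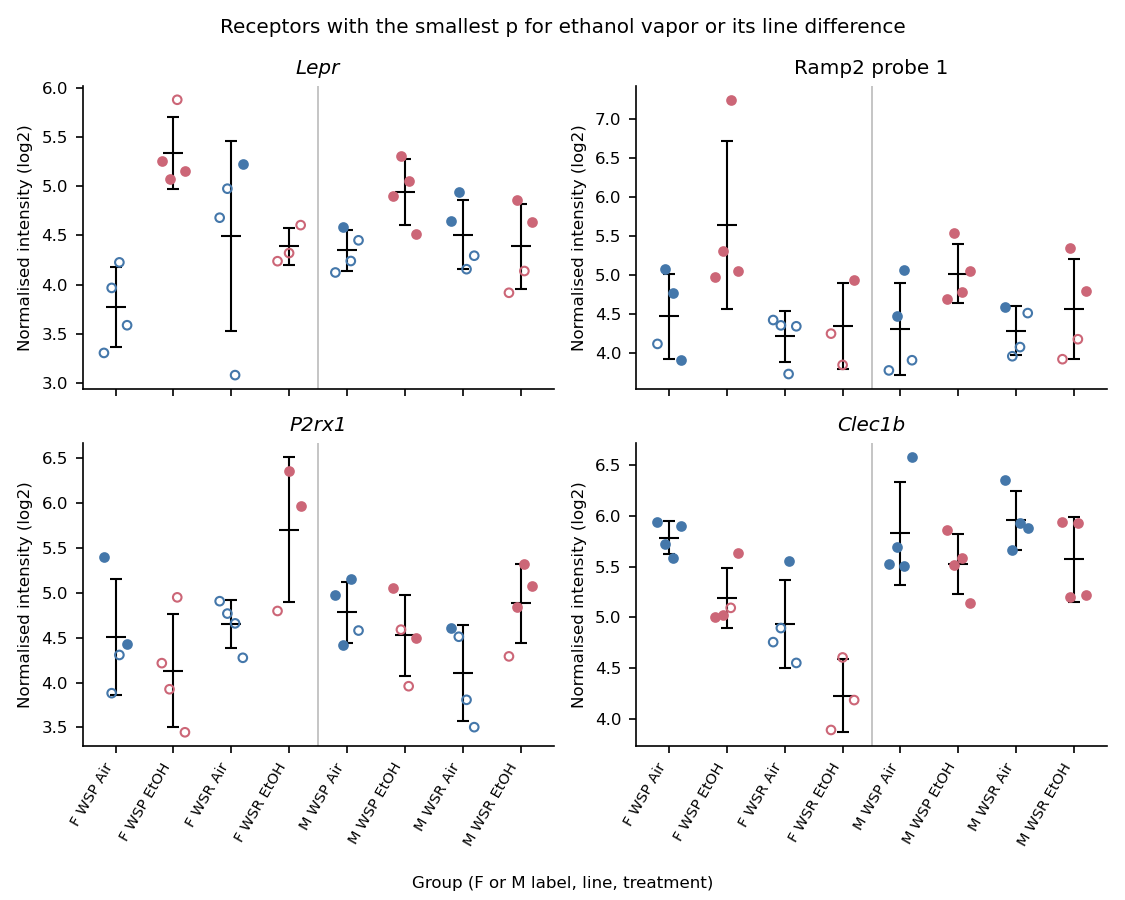
Quantile-normalised log2 intensity (vertical axis) of Lepr, Ramp2 probe 1, P2rx1 and Clec1b on every array of the 8 groups (horizontal axis, Air blue and EtOH red). Filled points are above background and open points below, bars are mean ± SD; in female WSP the 4 Lepr EtOH points (5.07 to 5.88) lie above the 4 Air points (3.30 to 4.23).

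Clec1b had the smallest p when ethanol was averaged over the groups. Its lowest, median and highest levels were 4.55, 5.68 and 6.58 over the 16 Air arrays and 3.90, 5.20 and 5.94 over the 15 EtOH arrays. The ranges overlapped widely, and 11 of 15 EtOH arrays were below the Air mean. The difference averaged over groups was −0.50 ± 0.15 (unadjusted p = 0.00208, limma adjusted p = 0.858). Female WSP arrays read 5.93, 5.72, 5.58 and 5.90 in Air and 5.01, 5.02, 5.09 and 5.64 in EtOH, overlapping through array 2-2. Male WSR arrays gave −0.38 ± 0.29. Because Clec1b is known from platelets, blood transcripts were set beside it: of the 4 hemoglobin spots 3 were tested, and none passed in any of the 13 contrasts. Averaged over groups they gave 0.64 (beta adult minor chain), −0.06 (alpha) and 0.12 (beta chain complex). Among them 1 had an unadjusted limma p below 0.05. The part of blood in the Clec1b values was not tested.

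In female WSR mice the largest receptor difference was that of Chrna1, a subunit of the muscle acetylcholine receptor. It read 4.03, 4.98, 4.81 and 3.85 in Air and 3.90, 9.29 and 6.20 in EtOH. The difference of 2.05 ± 0.76 (unadjusted p = 0.0116, limma adjusted p = 0.206, at least 2.32-fold) came from 2 EtOH arrays, and the lowest EtOH array lay inside the Air range. That fold keeps EtOH values below background as read. Without array 1-2 the difference was 0.64. Cr2, which binds complement C3 fragments, read 4.10, 3.14, 4.12 and 4.20 in female WSR Air and 5.31, 4.64 and 4.76 in EtOH. The groups did not overlap (1.02 ± 0.43, limma adjusted p = 0.264), but all 7 values were below background. Female WSR arrays carried the highest Background readings of the study, and the myelin proteolipid protein and synapsin I gave −1.37 and 1.46 there (limma adjusted p = 0.174 and 0.106), neither past the threshold. Plp2, which matched by title words alone and is not a defining oligodendrocyte marker, gave 0.27. The part of those differences in the receptor values was not tested.

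None of the remaining ethanol differences passed. Tlr4 in female WSP read 3.33, 4.44, 4.91 and 5.02 in Air and 4.96, 4.76, 6.03 and 5.15 in EtOH (0.80 ± 0.37, unadjusted p = 0.0416, limma adjusted p = 1.00), with overlapping groups. Without Air array 1-1 the Tlr4 difference was 0.44. In male WSP the aryl hydrocarbon receptor partner Arnt2 gave −0.74 ± 0.55, and in male WSR the B cell receptor-associated protein Bcap31 gave −0.71 ± 0.45. Esr1 had differences of −0.26 ± 0.64, −0.03 ± 0.69, −0.16 ± 0.64 and −0.20 ± 0.64 in female WSP, female WSR, male WSP and male WSR, and −0.16 ± 0.33 averaged over them. Its spread was large: the SD was 1.82 in female WSR EtOH (3.55 to 7.03, n = 3) and 1.29 in female WSR Air (3.71 to 6.79, n = 4), against 0.52 to 0.65 in the male groups. Because the spread is pooled over groups, the SEs of the male Esr1 differences carry the female WSR spread.

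Itpr1, the calcium release channel, was scattered among females. It read 7.84, 4.57, 4.49 and 3.93 in female WSP Air and 4.33, 4.66, 3.46 and 5.64 in EtOH (−0.69 ± 0.56). In female WSR it read 5.33, 5.46, 4.51 and 4.99 in Air and 4.27, 3.38 and 3.84 in EtOH (−1.24 ± 0.60, unadjusted p = 0.0488, limma adjusted p = 0.335). The female WSR groups did not overlap, although only 1 of those 7 arrays, in Air, was above background. Male WSP arrays read 3.73, 3.82, 4.44 and 3.76 in Air and 3.36, 4.41, 4.35 and 3.74 in EtOH (0.03 ± 0.56). Male WSR arrays read 4.34, 4.64, 3.18 and 3.39 in Air and 4.19, 4.85, 4.13 and 4.53 in EtOH (0.54 ± 0.56). Male groups overlapped in both lines, and the difference averaged over groups was −0.34 ± 0.28 (limma adjusted p = 0.875).

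The line comparisons asked whether WSP and WSR mice differ in receptor transcripts. Among Air females, 3.31% of all spots passed the threshold and 0 of the 36 receptors did. With the spread taken from only the arrays compared, 0 of all spots passed. At an unadjusted p below 0.05 stood 7 receptors (19.4%, against 18.0% of all spots). Clec1b read 5.93, 5.72, 5.58 and 5.90 in female WSP and 4.76, 4.90, 5.55 and 4.55 in female WSR, without overlap (0.84 ± 0.29, limma adjusted p = 0.106). Crlf3 read 7.63, 7.22, 4.51 and 7.37 in WSP and 6.0, 4.82, 5.50 and 5.38 in WSR (1.26 ± 0.46, limma adjusted p = 0.133). The lymphoid chemokine receptor Ccr7 read 5.57, 5.36, 4.75 and 4.97 in WSP and 4.07, 3.71, 5.15 and 3.72 in WSR (1.00 ± 0.37, limma adjusted p = 0.134). Crlf3 overlapped through WSP array 2-1 and Ccr7 through WSR array 2-1.

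The Background reading differed between these female groups, at 10.3 to 283 on the WSP Air arrays and 430 to 721 on the WSR Air arrays. Within WSP, array 1-1, with the highest reading (283), had the highest Clec1b, Crlf3 and Ccr7 levels. Array 2-1, with the next highest reading (99.4), had the lowest levels of all of them. The part of the reading in these levels was not tested. Ccr7 was above background on 4 WSP and 0 WSR arrays, and Clec1b on 4 and 1. Myelin proteolipid protein was lower in WSP (−1.87, limma adjusted p = 0.0133). Plp2, a match by title words and not a defining oligodendrocyte marker, differed by 0.0040. Synapsin I gave 1.39 (limma adjusted p = 0.0505) and glutamine synthetase 0.97 (limma adjusted p = 0.20). Reading and line cannot be told apart in full, because all female WSR arrays had high readings. With the reading class as a term the differences were 0.76 (Clec1b), 0.63 (Crlf3) and 1.11 (Ccr7), and with cyclic loess scaling 0.19, 0.12 and 0.76, none past the threshold. Leaving out WSR Air array 2-1 took Lepr, Ccr7 and Clec1b past the threshold, and leaving out WSP Air array 2-1 took Crlf3 past it. Lepr differed between WSP and WSR females in Air by −0.72 ± 0.35 (limma adjusted p = 0.273), Esr1 differed by −0.73 ± 0.64 and Itpr1 by 0.14 ± 0.56.

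Among Air males, where all readings were low, 0% of all spots and 0 receptors passed, and 0 receptors, against 2.14% of all spots, had an unadjusted p below 0.05. The smallest p values belonged to P2rx1 (0.68 ± 0.38), Tlr4 (−0.48 ± 0.37) and Fcer1g (0.75 ± 0.58). Lepr differed by −0.16 ± 0.35, Esr1 by 0.05 ± 0.64 and Itpr1 by 0.05 ± 0.56. With both sexes together, 0.232% of all spots and 0 receptors passed in Air, with 3 receptors (8.33%, against 10.9% of all spots) at an unadjusted p below 0.05. Ccr7 had a lowest, median and highest level of 4.68, 5.25 and 6.19 in the 8 WSP Air arrays and 3.71, 4.88 and 5.46 in the 8 WSR Air arrays. All 8 WSP arrays were above the WSR mean, with overlapping ranges (0.61 ± 0.26, limma adjusted p = 0.39). Bcap31 gave −0.67 ± 0.32, Cr2 0.58 ± 0.28, Lepr −0.44 ± 0.25, Esr1 −0.34 ± 0.45 and Itpr1 0.09 ± 0.40.

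After ethanol the line comparison over both sexes called 0% of all spots and 0 receptors, with 4 receptors (11.1%, against 8.65% of all spots) at an unadjusted p below 0.05. P2rx1 had a lowest, median and highest level of 3.45, 4.36 and 5.06 in the 8 WSP EtOH arrays and 4.29, 5.07 and 6.35 in the 7 WSR EtOH arrays (−0.96 ± 0.28, unadjusted p = 0.00173, limma adjusted p = 0.379). Lepr had 4.51, 5.11 and 5.88 in WSP and 3.92, 4.32 and 4.86 in WSR (0.76 ± 0.26, limma adjusted p = 0.432). Ramp2 probe 1 had 4.69, 5.06 and 7.25 in WSP and 3.85, 4.25 and 5.35 in WSR (0.88 ± 0.31, limma adjusted p = 0.448). All 8 WSP arrays lay below the WSR mean for P2rx1 and above it for Lepr and Ramp2 probe 1, and the ranges overlapped in each case. Esr1 gave −0.43 ± 0.47 and Itpr1 0.12 ± 0.41. These values use the same EtOH arrays as the ethanol comparisons and are no second measurement of them.

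Only the comparisons between arrays labelled female and male called receptors. In Air, 15.0% of all spots passed, with 3.43% higher and 11.6% lower in females, and 2 of the 36 receptors passed (Itpr1 higher, Ptpra lower). After ethanol 9.89% of all spots passed, with 1.70% higher and 8.19% lower in females, and 2 receptors passed, both lower (Ptpra, Clec1b). The receptor share of 2 in 36 was below the share of all spots in both treatments. With the reading class as a term 0 of all spots passed in either treatment, and on arrays with a reading under 80 0 passed in Air and 156 in EtOH. That term rests on the female WSP arrays, since no other group had readings on both sides of 80. With it the SE in Air rose from 0.39 to 0.58 for Itpr1 and from 0.26 to 0.39 for Tlr4. At an unadjusted p below 0.05 stood 9 receptors in Air and 4 in EtOH (25% and 11.1%, against 29.5% and 24.6% of all spots).

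Ptpra is a receptor-type tyrosine phosphatase known to activate Src-family kinases. Its lowest, median and highest levels in Air were 2.97, 4.15 and 4.94 in the 8 female arrays and 4.48, 4.90 and 5.49 in the 8 male arrays. It was above background on 2 female and 7 male Air arrays, and the ranges overlapped. The difference was −0.78 ± 0.25 (limma adjusted p = 0.0374), with 7 of 8 female arrays below the male mean. In EtOH the levels were 2.86, 3.98 and 4.68 in the 7 female arrays and 4.38, 5.12 and 5.37 in the 8 male arrays. It was above background on 1 female and 7 male EtOH arrays. The EtOH difference was −1.21 ± 0.27 (limma adjusted p = 0.00494), and 7 of 7 female arrays were below the male mean.

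The female arrays with the lowest Ptpra levels were not of 1 line. Female WSP Air read 4.17, 4.94, 4.04 and 4.65, and female WSR Air 2.97, 4.48, 4.13 and 3.93. Female WSP EtOH read 3.17, 3.74, 4.68 and 4.50, and female WSR EtOH 4.05, 3.98 and 2.86. Each female group held values below the lowest male level of 4.38. Ptpra was above background on none of the 11 arrays with a reading above 80, all of them female. Among arrays with a reading under 80, which leaves only WSP females, the difference was −0.26 in Air (limma adjusted p = 0.868) and −0.86 in EtOH (limma adjusted p = 0.154). With the reading class as a term it was −0.45 in Air and −0.88 in EtOH, neither past the threshold. Within WSP it was −0.59 and −0.98, and within WSR −0.97 and −1.44. Of these line values only WSR in EtOH passed (limma adjusted p = 0.0286).

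Itpr1 was higher in females in Air. Its lowest, median and highest levels were 3.93, 4.78 and 7.84 in the 8 female arrays and 3.18, 3.79 and 4.64 in the 8 male arrays, with overlapping ranges. All 8 female arrays were above the male mean (1.23 ± 0.39, limma adjusted p = 0.035), yet only 4 female arrays and 1 male array were above background. The female WSP array 1-1 stood apart at 7.84, and without it the difference was 0.79 and did not pass. Among arrays with a reading under 80 the difference was 0.29, and with the reading class as a term 0.98 (limma adjusted p = 0.882 and 0.655). In EtOH the female levels were 3.38, 4.27 and 5.64 and the male levels 3.36, 4.27 and 4.85, a difference of −0.02 ± 0.41. On arrays with a reading under 80 the EtOH difference was 1.17 (limma adjusted p = 0.108), above the Air value of 0.29. The corresponding test of whether Air and EtOH differ is the female minus male response above, which did not pass.

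**Figure D4:**
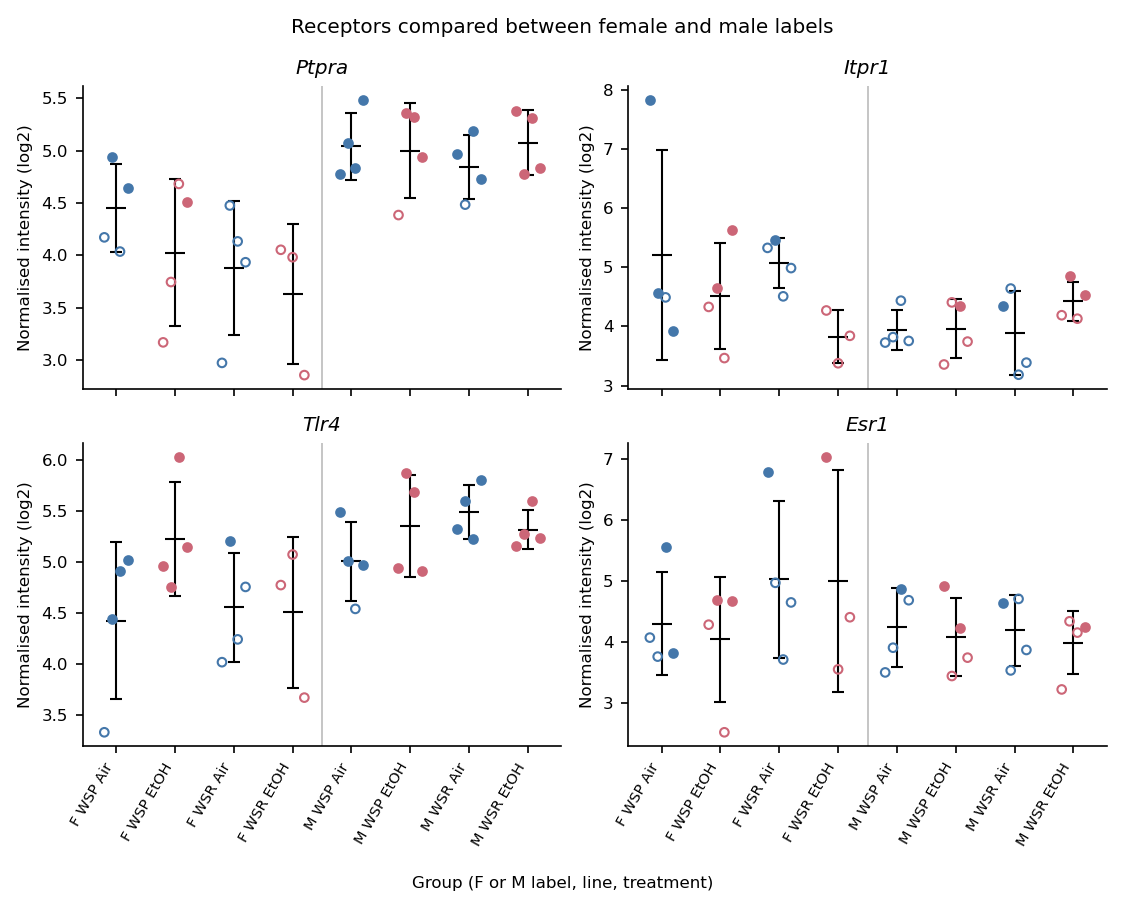
Quantile-normalised log2 intensity (vertical axis) of Ptpra, Itpr1, Tlr4 and Esr1 on every array of the 8 groups (horizontal axis, Air blue and EtOH red). Filled points are above background and open points below, bars are mean ± SD; Ptpra is open on all 7 female WSR arrays, and a single female WSP Air array carries Itpr1 at 7.84.

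Clec1b was lower in females after ethanol. Its lowest, median and highest levels were 3.90, 5.01 and 5.64 in the 7 female EtOH arrays and 5.14, 5.55 and 5.94 in the 8 male EtOH arrays, with overlapping ranges. The difference was −0.84 ± 0.21 (limma adjusted p = 0.013), and 6 of 7 female arrays were below the male mean. It was above background on 3 female and 8 male arrays. The 3 female WSR arrays read 3.90, 4.61 and 4.19, all below background, and the 4 female WSP arrays 5.01, 5.02, 5.09 and 5.64. Within WSR the difference was −1.34 (limma adjusted p = 0.0132) and within WSP −0.33 (limma adjusted p = 0.673). Among arrays with a reading under 80 it was −0.21, and with the reading class as a term −0.71, neither past the threshold. Cyclic loess scaling in place of quantile scaling gave −0.29 (limma adjusted p = 0.561).

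Other receptors missed the threshold between the sex labels. Tlr4 in Air had a lowest, median and highest level of 3.33, 4.60 and 5.21 in females and 4.54, 5.28 and 5.81 in males. All 8 female arrays were below the male mean, with overlapping ranges (−0.76 ± 0.26, limma adjusted p = 0.0516). Tlr4 lay at the threshold: it passed with the dim filter at the 50th percentile (limma adjusted p = 0.0353), with the excluded array included (limma adjusted p = 0.0487) and in 7 of 31 fits that left out 1 array. Among arrays with a reading under 80 its difference was −0.28, and with the reading class as a term −0.73, neither past the threshold. Lepr differed by −0.30 ± 0.25 in Air and 0.20 ± 0.26 in EtOH, and Esr1 by 0.45 ± 0.45 and 0.48 ± 0.47. Glutamine synthetase was lower in female EtOH arrays (−1.13, limma adjusted p = 0.0178) and gave −0.56 in Air (limma adjusted p = 0.195). Its part in the receptor differences was not tested. The readings were 430 to 769 in female WSR and 8.25 to 41.1 in males, so sex label and reading cannot be told apart outside WSP.

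**Figure D5:**
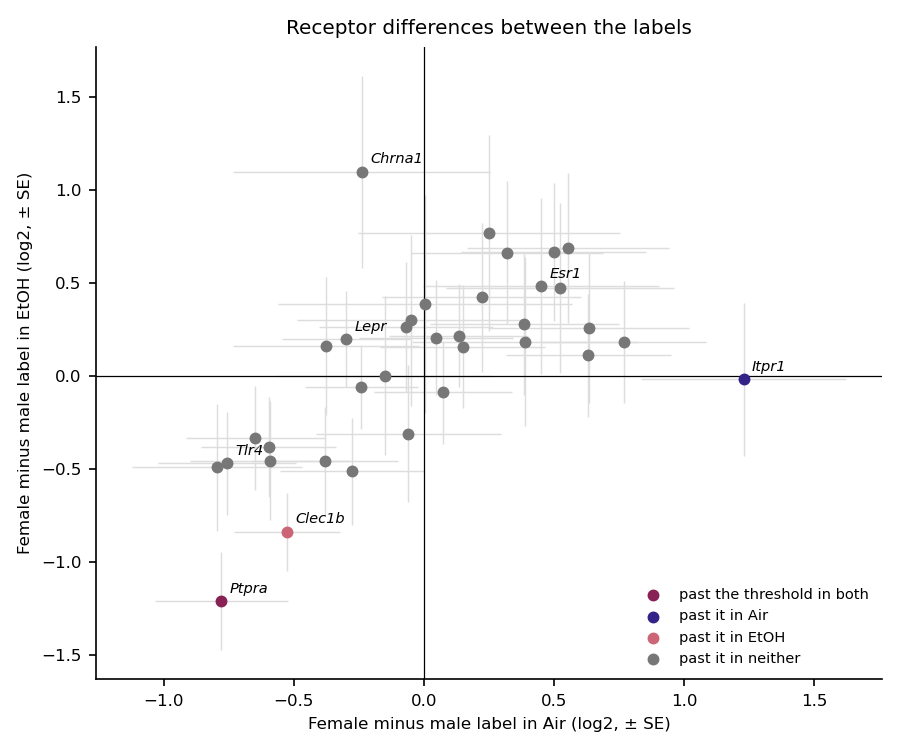
Female minus male difference (log2) in Air (horizontal axis) and in EtOH (vertical axis) for 35 of the 36 tested receptors, 1 point each with lines of ± SE; colour marks those past the threshold in both treatments, in 1 of them or in neither. Ptpra lies at −0.78 and −1.21, Itpr1 at 1.23 and −0.02, and Clec1b passed in EtOH alone at −0.84.

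Partner transcripts were taken from lists by title, for comparison with the receptors. The lists follow title words, so not every title is a partner by function. The ligand list holds genes induced or regulated by transforming growth factor beta, and interleukin enhancer binding factor 3. The G protein list holds adenylate cyclase 7 and adenylate cyclase activating polypeptide 1, which are not G proteins. Of 7 G protein titles 5 were tested, of 6 cytokine signalling titles 4, of 11 inositol lipid and calcium titles 10 and of 10 ligand titles 9. None of the tested titles passed in the ethanol comparison averaged over groups, where 0% of all spots did. Between female and male Air arrays, where 15.0% of all spots passed (3.43% higher, 11.6% lower), 1 G protein was lower, the Gq-family subunit alpha 11 (−1.27, limma adjusted p = 0.000471). Of the inositol and calcium titles 1 was lower, calmodulin (−0.79, limma adjusted p = 0.015). Another was higher, phosphatidylinositol glycan class F, a match by title word only (1.07, limma adjusted p = 0.0295). Of the ligand titles 1 was lower, the 68 kDa transforming growth factor beta induced protein, not itself a growth factor (−1.40, limma adjusted p = 0.00252).

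After ethanol, where 9.89% of all spots passed, alpha 11 was again lower in females (−1.63, limma adjusted p = 0.00014). The fast-twitch calcium ATPase was lower as well (−1.07, limma adjusted p = 0.0312), and no cytokine signalling or ligand title passed. Between the lines in Air females, where 3.31% of all spots passed, G protein alpha 13 was lower in WSP (−1.60, limma adjusted p = 0.0415) and phospholipase C epsilon 2 higher (1.50, limma adjusted p = 0.0409). The Background readings given above differ between these groups as well. With the reading class as a term, 0 of all 3872 spots passed between females and males in Air or in EtOH, partner titles included. For the lines in Air females 63 of all spots passed with that term, against 128 without it.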

How the data were processed

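Per the file headers, each array file held a Signal and a Background column. The deposited Signal was an intensity on a linear scale for each of 5355 spots, and Background was 1 reading per array. Signal had not been reduced by Background. RNA of 2 pooled animals was labelled with 33P, per the labels' protocols; the quantification software was not given in the sources used here. The authors' deposited value table held log2 values that ranked spots as Signal did on every array (Spearman 1) and were empty where Signal was below Background, apart from 8 empty and 33 filled cells. Its column medians were 7.35 to 11.19; its scaling method and centring are unknown, and it served only as an alternative.

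With limma 3.58.1 in R 4.3.3, Signal was background-corrected by normexp on each array. The offset was 50, or 0.1 of the array's median Signal where that median was under 500. The 192 control spots were dropped, and the 5163 cDNA spots were quantile normalised and put on the log2 scale. Spots with a mean in the lowest 25% were not tested. A model of 8 group means over 31 arrays (23 residual degrees of freedom) gave 13 contrasts, with Benjamini-Hochberg adjustment over 3872 spots at 0.05. A fold against a group above background on no array was computed from each array's lowest signal above background and is given as "at least". Values of the other group were kept as read, also where they lay below background, so the bound covers the undetected group only. The number of arrays, and not a read depth, limits the precision. The script was tested on simulated data with known changes.

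The ethanol injection was 1.75 g/kg in WSP-2 mice and 1.5 g/kg in the other lines. The array of female WSR-2 EtOH pool 1 was left out. The deposited record, not the name in the file header, was followed for 1 array (female WSP-1 EtOH pool 2) whose header carries pool 1. Separate pools are biological samples per the labels. Receptors and partner lists were chosen with earlier results of these data known. Contrast values are given for receptors past the threshold, otherwise for the 3 with the smallest p, and always for Lepr, Esr1 and Itpr1. A few items that these rules would name are not reported here. Of the 47 titles 46 were given a symbol that the RefSeq gene table holds. For P2rx1, Chrna1 and Fcer1g it also lists the spot's accession as a synonym of that symbol. The nuclear receptor subfamily 2, group H, member 1 title did not match. Same-numbered EtOH and Air pools of a selected line showed little common deviation when taken over all groups (mean correlation 0.03, from −0.17 to 0.24, with 11 of 15 pairs below 0.1). The arrays were therefore not modelled as pairs. In female WSP the pool number went with the Background reading in both treatments: 88.4 to 283 for pool 1 and 10.3 to 66.8 for pool 2. Pairing within female WSP was not tested separately. Alternatives covered background correction, offset, scaling, the dim filter, the left-out array, blocks, array weights, the reading class, the authors' table and leaving out each array. The fits within WSP or WSR alone were chosen after seeing the data.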

Additional observations from a re-analysis of the deposited data

Results flagged for a closer look

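Of 112 groups of 4 arrays over 16 receptors, 10 held a value far from the other 3 by Dixon's criterion, which chance gives in about 1 in 20 groups. Itpr1 on female WSP Air array 1-1 was 7.84, against 3.93 to 4.57 on the others, with a Signal of 1.77 times the reading. In male WSP Air, array 2-1 was at 4.44, with the others at 3.73 to 3.82. Ramp2 probe 1 was 7.25 on female WSP EtOH array 2-1 against 4.98 to 5.31, and 3.74 on female WSR Air array 2-1 against 4.35 to 4.43. Crlf3 was 4.51 on female WSP Air array 2-1 against 7.22 to 7.63. Clec1b was 5.64 on female WSP EtOH array 2-2 against 5.01 to 5.09, and Ccr7 was 5.54 on female WSP EtOH array 2-1 against 4.73 to 4.81. Cr2 was 3.14 on female WSR Air array 1-2 against 4.10 to 4.20. Esr1 was 3.22 on male WSR EtOH array 1-1 against 4.15 to 4.34, and Fcer1g was 5.26 on male WSP Air array 2-1 against 4.68 to 4.72.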

How the results depend on the processing

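Many receptor signals lay near background: F2rl3 exceeded 2 times the reading on 28 arrays and Crlf3 on 20, and 0 receptors did so on all 31. Females against males in Air, 2 receptors passed; 1 did without background correction, with a fixed offset of 50 or with only the arrays compared (Ptpra each time), and 0 with cyclic loess, array weights, low-reading arrays only, the reading class as a term or WSP alone. It was 3 within WSR alone (Nr1h2, Clec1b, Crlf3), with median scaling (F2rl3 added, −1.76, adjusted p = 0.00139), with the 50th percentile dim filter (Ptpra, Tlr4, Clec1b; Itpr1 was not tested) and with the excluded array (Tlr4 added). The authors' table gave 2 other receptors (F2rl3, Acbd3). In EtOH, against 2, the number was 1 with cyclic loess (Ptpra), low-reading arrays only (the nuclear receptor 2 group H title) or the authors' table (F2rl3), 0 with the reading class or WSP alone, and 4 with array weights (Ptpra, Clec1b and Chrna1 among them). It was 3 with median scaling (F2rl3 added, −2.30, limma adjusted p = 0.000105). The female Air line comparison, with 0, gave 2 with median scaling (F2rl3, Crlf3), 1 with array weights (Crlf3) and 3 in the authors' table (F2rl3, Acbd3, Crlf3). EtOH in female WSP gave 2 with array weights (Lepr, adjusted p = 0.0218, and Ifngr2). The split of calls over all spots, 133 higher and 449 lower in Air females, was 75 and 29 with cyclic loess; in EtOH it was 66 and 317 against 61 and 37 with cyclic loess. With the reading class as a term no spot passed in either treatment; on low-reading arrays 0 passed in Air and 156 in EtOH, and within WSP alone 0 and 65. In EtOH 906 passed with median scaling and 201 within WSR alone. For the female Air line comparison it was 94 and 34, against 344 and 39 with median scaling and 5 and 15 with cyclic loess; the total of 128 was 0 with only the arrays compared, 63 with the reading class, 429 with array weights and 358 in the authors' table. Median scaling put the median of all spots at 0.26 there (0.10 before), at −0.21 for EtOH in female WSP (−0.03 before), and at −0.17 (Air) and −0.19 (EtOH) between females and males (−0.05 and −0.03 before). The all-spot total of 9 ran from 0 to 47 for EtOH in female WSR and from 0 to 234 for the lines in Air over both sexes, and array weights called 13 of all spots for EtOH in female WSP. The cause of these shifts was not tested.

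With the selection replicate and pool number as a replicate block, 3 receptors passed between females and males in Air, Itpr1 and Ptpra among them, and Ptpra in EtOH was −1.18 (adjusted p = 0.00604). Leaving out 1 array at a time gave 0 to 4 receptors between females and males in Air, 0 to 3 between lines in Air females (3 without female WSR Air 2-1, 1 without female WSP Air 2-1), 0 to 1 for EtOH in female WSP (Lepr without female WSR Air 2-1, adjusted p = 0.0158) and 0 to 1 for EtOH in female WSR (Chrna1 without female WSR EtOH 1-1). No receptor passed between females and males in Air without female WSP Air 1-1, male WSP Air 1-2 or 2-2, or male WSR Air 2-2. Itpr1 and Ptpra in Air each passed in 23 of 31 such fits; Ptpra (−1.32 to −1.01) and Clec1b (−0.93 to −0.75) in EtOH passed in all 31.

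Sign changes were seen only for values that did not pass. EtOH in female WSP was 0.64 (Esr1) and 0.41 (Itpr1) with array weights, and 0.82 and 0.90 on low-reading arrays. Esr1 in female WSR was 0.056 without correction, 0.017 with the fixed offset, 0.052 with cyclic loess and 0.072 with the excluded array. In male WSP array weights gave 0.021 (Esr1) and −0.035 (Itpr1). The line difference in response was −0.053 (no correction) and −0.026 (fixed offset) for Itpr1 and 0.80 (array weights) for Esr1; the sex difference was −0.0055 for Esr1 with the selected line as a fixed replicate block. Itpr1 between lines in Air females was −0.16 with median scaling, −0.063 with cyclic loess and −0.65 with array weights; over both sexes it was −0.071 and −0.40 with median scaling and array weights, and in males −0.15 with array weights. Esr1 between lines in EtOH was 0.14 with array weights. Between females and males, Esr1 was −0.42 (Air, low-reading arrays) and −0.040 (EtOH, WSP alone), and Itpr1 in EtOH 0.015 (no correction), 0.17 (array weights), 1.17 (low-reading arrays) and 0.56 (WSP alone).

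With 1 array left out, EtOH values ran, in female WSP, from −0.48 to 0.24 (Esr1) and −1.10 to 0.19 (Itpr1). In female WSR they ran from −0.58 to 0.14 (Lepr) and −1.05 to 0.70 (Esr1), in male WSP from −0.44 to 0.051 (Esr1) and −0.12 to 0.23 (Itpr1), and in male WSR from −0.28 to 0.035 (Lepr) and −0.42 to 0.061 (Esr1). Esr1 averaged over groups ran from −0.42 to 0.018. The line difference in response ran from −0.46 to 0.41 (Esr1) and −0.19 to 0.46 (Itpr1), and the sex difference from −0.47 to 0.39 (Esr1). Between lines, Itpr1 ran from −0.74 to 0.55 (Air females), −0.19 to 0.30 (Air males), −0.35 to 0.30 (Air, both) and −0.070 to 0.29 (EtOH), and Esr1 from −0.17 to 0.30 (Air males) and −0.80 to 0.075 (EtOH). Between females and males in EtOH, Esr1 ran from −0.026 to 0.85 and Itpr1 from −0.20 to 0.16.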
